A study of Mus musculus with 10 samples.

Results

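Oxidative phosphorylation genes are the genes for the subunits of the respiratory chain and of ATP synthase. They were read here from their names: every gene of the deposited table whose symbol begins with Nduf, Uqcr, Cox4 to Cox8 or Atp5, the 4 Sdh genes, and the mitochondrially encoded mt-Nd, mt-Co, mt-Cyt and mt-Atp genes, without pseudogenes numbered as -ps. The rule took 108 of the 51911 genes in the table. Of these, 94 encode subunits, 81 from the nuclear genome and 13 from the mitochondrial genome. The other members are 9 assembly factors of complex I (Ndufaf1 to Ndufaf8 and Atp5sl), 3 related proteins (Ndufa4l2, Cox7a2l and Atp5s), and 2 pseudogenes that the name rule kept (Atp5l2-ps and Ndufab1-ps). By complex, the subunits fall into 43 for complex I, 4 for complex II, 9 for complex III, 21 for complex IV (Ndufa4 among them) and 17 for complex V.

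Complex I (NADH dehydrogenase) and complex II (succinate dehydrogenase) pass electrons to ubiquinone, complex III (cytochrome bc1) passes them on to cytochrome c, and complex IV (cytochrome c oxidase) passes them to oxygen. Complexes I, III and IV pump protons, and complex V (ATP synthase) uses the gradient to make ATP. Complex II is wholly nuclear encoded, whereas the other complexes combine proteins made in the cytosol with a few made from the mitochondrial genome, which is transcribed as long precursors and then cut at its tRNAs. In the liver, fatty acid oxidation is a main source of the NADH and reduced flavin that feed this chain, and the transferase encoded by Cpt1a controls the entry of long-chain fatty acids into it.

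Total liver RNA was sequenced from C57BL/6 mice that had all been fed a high-fat diet for 8 weeks, 5 wild type and 5 Cpt1a L-/- (a liver knockout of Cpt1a). The sources used here do not give age or the driver of the deletion, and no label says that each sample was a separate animal, so a p-value here weighs a difference against sample-to-sample spread only. Libraries are called wild type 1 to 5 and knockout 1 to 5 after their titles, and they held between 20599078 and 26955922 counts. As a check of the labels, the 5 knockout libraries held 80.0 ± 9.19 CPM of Cpt1a (SD, n = 5) and the 5 wild type libraries 430.1 ± 85.8 CPM, without overlap. CPM stands for the count scaled to a common library size after normalisation between libraries. The 8 hepatocyte markers summed to between 90013 and 111127 CPM in wild type and between 81255 and 97060 CPM in knockout. In whole tissue, fewer cells of a type and less RNA per cell cannot be told apart.

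One feature of the libraries touches every result on these genes and crosses the genotypes. The first principal component of all 13619 tested genes held 34.2% of the variance, and it was negative in wild type 1 (-38.4) and 2 (-41.8) and in knockout 2 (-22.4), 3 (-7.65) and 5 (-15.4), and positive in the other 5 libraries. Genes shorter than 1000 bases (829 genes) lay above their own mean over the libraries by a median of 0.41, 0.51 and 0.34 log2 units in wild type 1, wild type 2 and knockout 2. In the other 7 libraries that median ran from -0.25 to 0.06. Many nuclear-encoded subunits have short transcripts, so results are also given from fits that used this component or left out some libraries. In addition, 36 of the 108 members overlap a gene on the other strand, and reads of the pair cannot be told apart where the counting did not use strand, a setting that the sources used here do not give.

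No oxidative phosphorylation gene differed between the genotypes at the threshold used, an adjusted p under 0.05 in edgeR's quasi-likelihood test over all 13619 tested genes. In all, 98 of the 108 members were expressed highly enough to be tested, and 0 of them were called, while 18 of all tested genes were (0.132%). An unadjusted p under 0.05 was reached by 0 of the 98 members, against 4.82% of all tested genes. No member had 5 knockout libraries all above or all below the 5 wild type libraries, which 1.05% of all tested genes had. DESeq2, limma-voom and limma on TPM (abundance per transcript length) also called 0 members, against 0.414%, 0.176% and 0.0808% of all genes they tested. The authors' deposited table gave none of the 108 members a p under 0.05, against 1.55% of its rows. The edgeR adjusted p was 1.00 for each of the 98 members, so below only departures from this are given.

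The estimates lay close to 0. The median log2 fold change (knockout minus wild type) was -0.06 over the 98 tested members and -0.02 over all tested genes, with 67 members below 0 and 31 above, where 55.3% of all tested genes were below 0. That median turned positive on TPM (0.07), in limma-voom (0.06) and without wild type 1 and 2 (0.23). The 10 members too low to test were Cox4i2, Cox6a2, Cox6b2, Cox7a1, Cox7b2, Cox8b, Cox8c, mt-Nd4l and the 2 pseudogenes. The 95% interval stayed within a 2-fold change in either direction for 94 of the 98 members and within a 1.5-fold change for 63. The 4 members with wider intervals were mt-Atp6, mt-Nd5, mt-Nd3 and Atp5e, the ATP synthase epsilon subunit.

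**Figure D1:**
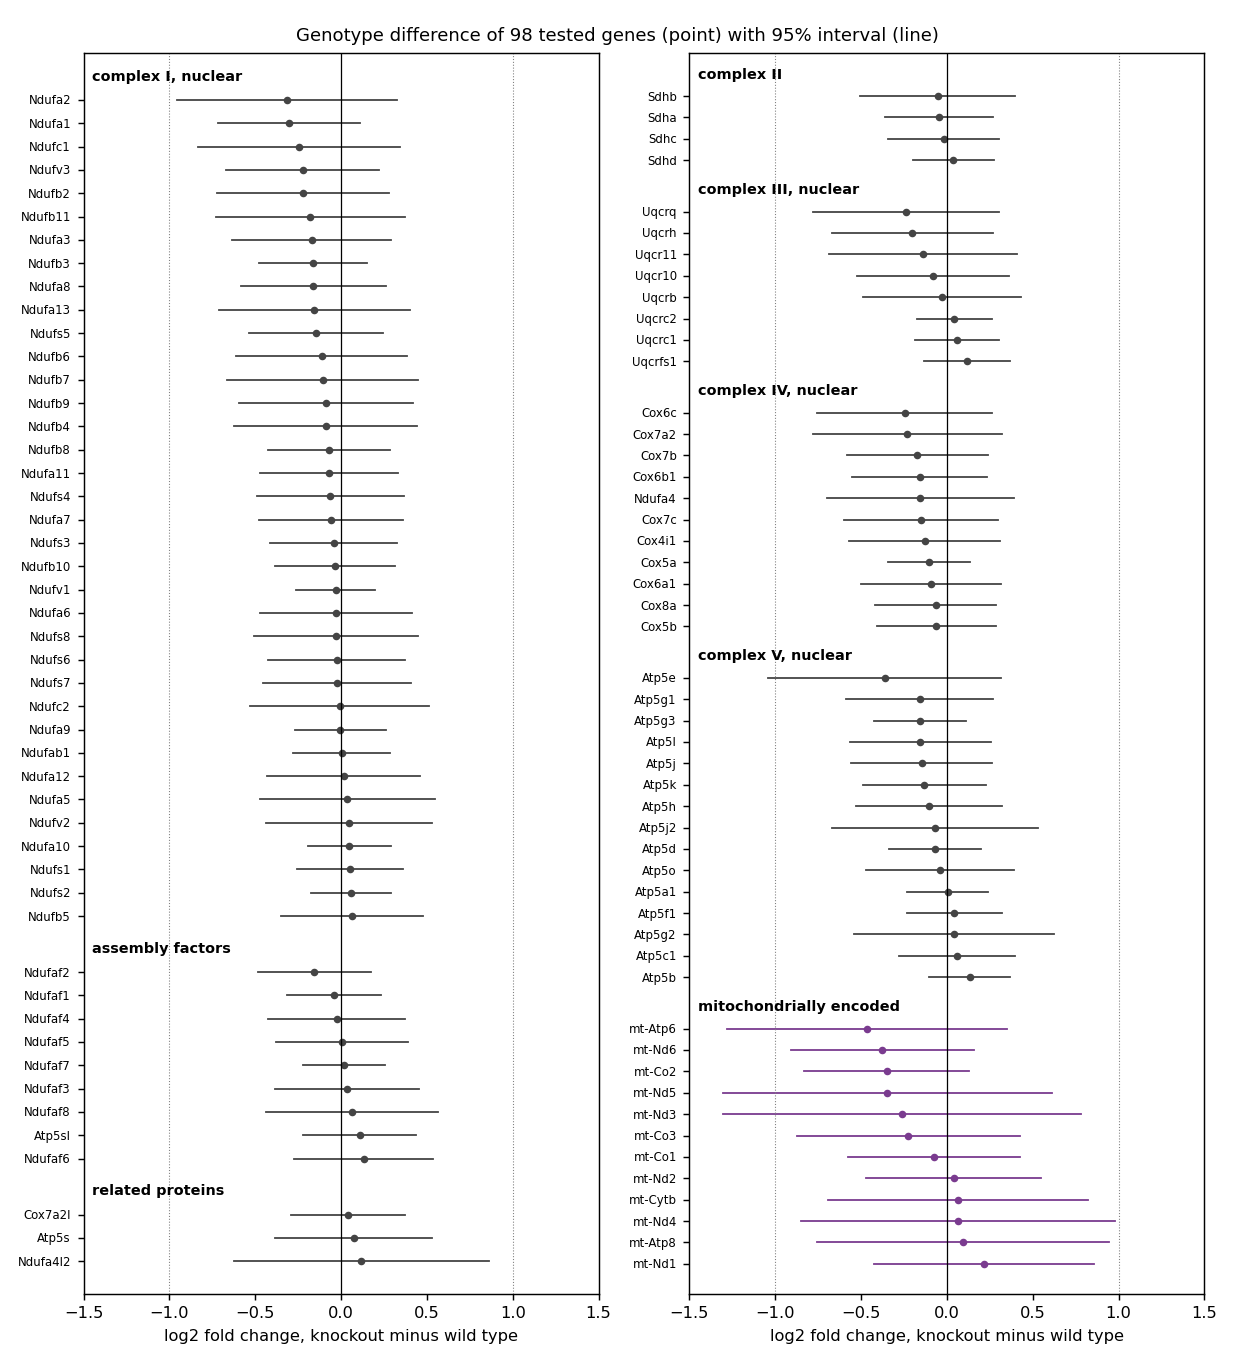
Log2 fold change between knockout and wild type for the 98 tested genes, as a point with its 95% interval (edgeR, 5 libraries per genotype), grouped by complex. Solid lines mark 0 and dotted lines a 2-fold change, and every interval contains 0. Several mitochondrially encoded genes, in purple, have wide intervals, such as mt-Nd3 (-1.30 to 0.78).

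By complex, the median log2 fold change was -0.06 for complex I (42 tested), -0.03 for complex II (4), -0.03 for complex III (9), -0.15 for complex IV (14) and -0.07 for complex V (17). All 14 tested subunits of complex IV had an estimate below 0, yet none of these estimates stood apart from 0 on its own, and with near-identical nuclear copies added mt-Co2 (0.06) and mt-Co3 (0.02) were above 0. The complex IV median was 0.02 on TPM and 0.22 without wild type 1 and 2, so its sign also depended on scale and on those libraries. The assembly factors had a median of 0.02, with 6 of 9 above 0.

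In complex I, the smallest p among nuclear-encoded subunits belonged to Ndufa1, a small membrane subunit that complex I needs for its assembly. Ndufa1 (chromosome X, 37187588 to 37191163 in GRCm38) measured 44.2, 47.1, 34.3, 33.5 and 30.3 CPM in wild type 1 to 5. It measured 29.6, 46.2, 22.5, 27.7 and 27.3 CPM in knockout 1 to 5. All knockout libraries but knockout 2 lay below the lowest wild type library, and knockout 2 lay with the highest. The log2 fold change was -0.30 ± 0.19 (SE), and it was -0.50 ± 0.15 without knockout 2 (edgeR adjusted p = 0.47).

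The other nuclear-encoded complex I subunits with the smallest p were Ndufb3 (log2 fold change -0.16 ± 0.15) and Ndufv3 (-0.22 ± 0.21), both accessory subunits. The most abundant nuclear-encoded ones were Ndufa6, at a mean of 453 TPM, and Ndufb9, at 399 TPM. Ndufs1 encodes the large iron-sulphur subunit of the NADH-oxidising arm, and it ran against the other subunits across libraries. It measured 88.8 and 88.0 CPM in wild type 1 and 2 and between 121 and 124 CPM in wild type 3 to 5, and 124, 117, 105, 128 and 91.6 CPM in knockout 1 to 5. None of the 9 assembly factors was called, and those with the smallest p were Ndufaf2 (-0.16 ± 0.15), Atp5sl (0.11 ± 0.15) and Ndufaf6 (0.13 ± 0.19).

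Complex II, the enzyme shared with the tricarboxylic acid cycle, had small estimates, and all 4 of their 95% intervals lay within a 1.5-fold change. Sdha, the flavoprotein that oxidises succinate, had 373, 377, 491, 508 and 487 CPM in wild type 1 to 5 and 489, 357, 392, 522 and 405 CPM in knockout 1 to 5. Its lower libraries were wild type 1 and 2 and knockout 2, 3 and 5, the same 5 that were negative on the first component, and its log2 fold change was -0.05 ± 0.14. Sdhb, the iron-sulphur subunit, ran the other way across libraries, with 283 and 256 CPM in wild type 1 and 2 against 148 to 166 CPM in wild type 3 to 5. The knockout libraries of Sdhb spanned 150.2 to 230.1 CPM. The membrane anchors Sdhc and Sdhd had log2 fold changes of -0.02 ± 0.15 and 0.04 ± 0.11.

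Among complex III subunits, the Rieske iron-sulphur protein Uqcrfs1 had the smallest p. It measured 226, 213, 175, 176 and 170.5 CPM in wild type 1 to 5 and 188, 225, 202, 206 and 221 CPM in knockout 1 to 5. Wild type 3 to 5 lay below all knockout libraries, whereas wild type 2 lay within their range and wild type 1 just above it, and the log2 fold change was 0.12 ± 0.12 with them and 0.27 ± 0.11 (edgeR adjusted p = 0.34) without them. Uqcrq, a small accessory subunit and the most abundant nuclear-encoded one of the complex at 908 TPM, had a log2 fold change of -0.24 ± 0.25, and its levels ran from 250.4 to 589.9 CPM in wild type and from 253 to 402 CPM in knockout. Uqcr11 (604 TPM) and Uqcrh had -0.14 ± 0.25 and -0.20 ± 0.22.

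Among tested nuclear-encoded subunits, those of complex IV had the highest levels. Per library, the median TPM over its 11 tested nuclear subunits was between 469 and 674, against 315 to 417 for complex III, 266 to 388 for complex V, 141 to 201 for complex II and 109 to 173 for complex I. By this median complex IV ranked first and complex I last in each of the 10 libraries. Over all 18 nuclear subunits of complex IV, with the 7 too low to test, its median was 209 to 279 TPM, below complexes III and V in each library. Cox6a1, a regulatory subunit that sits on the outer face of the enzyme, was the most abundant nuclear subunit at 1116 TPM on average. It measured 464, 449, 269.9, 302 and 260.2 CPM in wild type 1 to 5 and 263, 392, 312, 304 and 363 CPM in knockout 1 to 5. Wild type 1 and 2 and knockout 2 were again the 3 highest, and the log2 fold change was -0.09 ± 0.19.

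Cox6c, Cox5a and Cox7a2 had the smallest p among nuclear complex IV subunits. Cox6c measured 138, 205, 100.4, 101 and 97.7 CPM in wild type 1 to 5 and 100.1, 165, 92.9, 92.3 and 90.3 CPM in knockout 1 to 5. Apart from wild type 1 and 2 and knockout 2, all libraries lay within 90.3 to 101 CPM. Its log2 fold change was -0.25 ± 0.23, and Cox5a and Cox7a2 had -0.10 ± 0.11 and -0.23 ± 0.25.

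Several complex IV subunits exist as a ubiquitous form and as a form of heart and skeletal muscle, lung or testis, and only the ubiquitous forms had appreciable levels in these livers. Cox4i1, the form found in most tissues, stood at a mean of 776 TPM and Cox4i2, known from lung, at 0.062 TPM. Cox6a1 (1116 TPM) stood against 0.144 TPM for the muscle form Cox6a2. Cox6b1 was at 505 TPM and the testis form Cox6b2 at 1.18 TPM. Cox7a2, the liver form, was at 203 TPM and the muscle form Cox7a1 at 3.22 TPM, between 6 and 18 counts per library. Cox8a was at 737 TPM, Cox8b, the muscle form in mouse, at 0.278 TPM, and Cox8c and Cox7b2 had 0 counts in all 10 libraries, where 3 counts would be between 0.111 and 0.146 CPM. These limits cover counting error only.

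The same held for forms outside the classical list. Ndufa4, which binds complex IV, was at 712 TPM and Ndufa4l2, a relative known from hypoxic cells, at 3.08 TPM. The c subunit of the ATP synthase rotor is encoded by 3 genes for the same mature protein, and Atp5g3 (599.7 TPM) and Atp5g1 (331 TPM) stood far above Atp5g2 (11.1 TPM). The expected counts of Atp5g2 were not whole in all 10 libraries, against 0 libraries for Atp5g1 and Atp5g3, so its level is less certain. None of these levels separated the genotypes: Cox7a2l, a factor for supercomplexes of complexes III and IV, had a log2 fold change of 0.04 ± 0.15, and Ndufa4l2 had 0.12 ± 0.34. The 8 skeletal and cardiac muscle markers summed to no more than 1.37 CPM in any library, with 1 of 8 tested and Mb at 0.

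**Figure D2:**
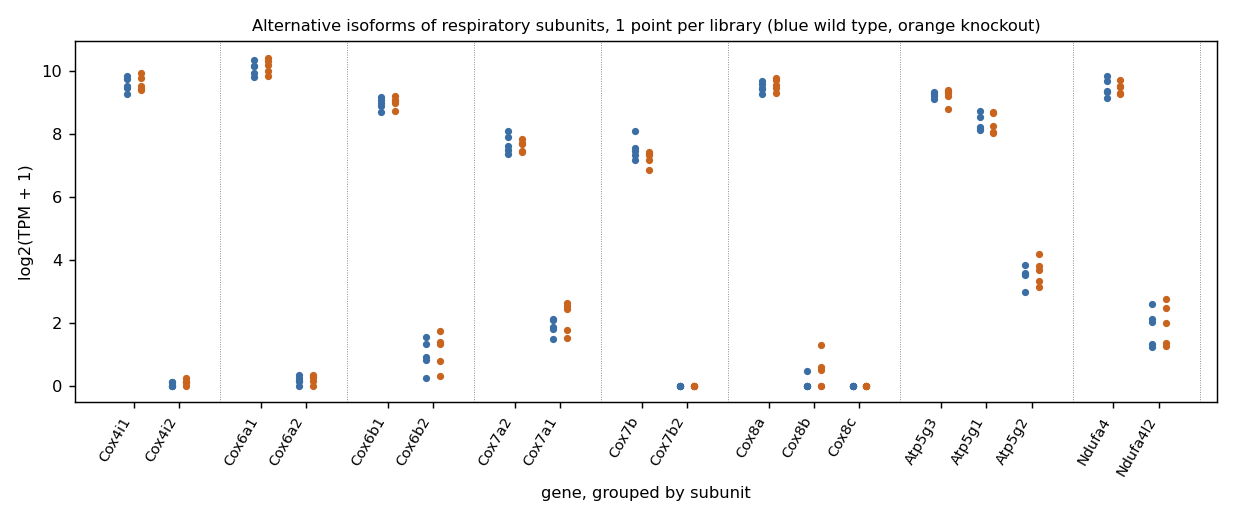
Level of alternative isoforms as log2(TPM + 1), with 1 point per library (5 wild type in blue, 5 knockout in orange) and isoforms of the same subunit side by side. The liver forms such as Cox6a1 (mean 1116 TPM) and Cox4i1 (776 TPM) stand far above their relatives, and both genotypes occupy the same range.

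Among nuclear-encoded subunits of complex V, Atp5g3 had the smallest p (log2 fold change -0.16 ± 0.12), followed by Atp5b (0.13 ± 0.11). Atp5b encodes the catalytic beta subunit and was the most abundant nuclear-encoded subunit of the complex at 1099 TPM. It measured 1068, 928, 1055, 1041 and 1047 CPM in wild type 1 to 5 and 1148, 998, 1137, 1163 and 1185 CPM in knockout 1 to 5. Wild type 2 and knockout 2 were the lowest of their groups. Atp5e showed the opposite and the widest spread of the tested nuclear subunits (3.01 times from lowest to highest library), with 124 and 149 CPM in wild type 1 and 2 against 49.7 to 56.5 CPM in wild type 3 to 5, and 53.7, 89.3, 61.6, 52.5 and 76.9 CPM in knockout 1 to 5. Its log2 fold change was -0.36 ± 0.31, and with the first component as a covariate it was -0.26 ± 0.09 (edgeR adjusted p = 0.40).

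Promoters are shown for the most abundant nuclear subunit, Cox6a1, and for Atp5b, which did not share its pattern across libraries. They come from RefSeq (GRCm38.p6) and span 250 bases before to 50 bases after the start. Capitals mark the letters searched on both strands: a palindrome of 10 letters for NRF1 (the first capitals of the Cox6a1 window), CCGGAAG for GABP, AAGATGGC for YY1, CCAAT and TATAAA. Cox6a1 lies on the minus strand at chr5:115348909-115349208 and Atp5b on the plus strand at chr10:128083057-128083356.
Cox6a1: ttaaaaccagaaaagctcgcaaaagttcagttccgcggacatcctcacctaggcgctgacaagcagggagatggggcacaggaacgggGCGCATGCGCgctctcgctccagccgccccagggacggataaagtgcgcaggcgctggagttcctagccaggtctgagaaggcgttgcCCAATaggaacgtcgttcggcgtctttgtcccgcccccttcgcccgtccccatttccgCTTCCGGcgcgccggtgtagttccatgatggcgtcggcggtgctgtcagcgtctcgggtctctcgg
Atp5b: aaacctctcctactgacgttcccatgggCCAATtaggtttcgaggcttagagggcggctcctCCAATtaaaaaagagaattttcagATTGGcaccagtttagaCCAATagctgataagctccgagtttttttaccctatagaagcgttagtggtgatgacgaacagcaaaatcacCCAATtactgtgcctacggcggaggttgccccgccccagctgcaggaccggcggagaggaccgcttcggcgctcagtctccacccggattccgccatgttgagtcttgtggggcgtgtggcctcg
The Cox6a1 window held 1 NRF1, 1 CCAAT and 1 GABP match, the last as its reverse complement 16 to 10 bases before the start. The Atp5b window held 5 CCAAT matches, 1 of them reversed, and none of the other letters.

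NRF1, GABP and YY1 are transcription factors known for promoters of respiratory genes. Promoter windows were found for 67 of the 81 nuclear subunits. The NRF1 letters stood in 5 of the 67 windows (7.46%), against 1.07% of all 27025 genes with a window, and the GABP letters in 16 (23.9%) against 9.93%. The YY1 letters stood in 10 (14.9%) against 3.19%. CCAAT was as common in these windows (43.3%) as in all (41.1%), and TATAAA stood in 7 (10.4%) against 15.7%. A match is a description of the letters and not a binding site.

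Across libraries, the nuclear-encoded subunits varied together within both genotypes. Their level, the mean of log2 CPM minus each gene's own mean, was 0.37 and 0.45 in wild type 1 and 2 and -0.23, -0.19 and -0.25 in wild type 3 to 5. In knockout 1 to 5 it was -0.18, 0.29, -0.09, -0.21 and 0.05. Wild type 1, wild type 2 and knockout 2 were the 3 highest libraries for 56 of the 74 tested nuclear subunits. How many of all tested genes ranked these libraries so was not counted, so the ranking is not shown to be particular to the subunits. The difference between the genotypes in this level was -0.06, with SDs of 0.35 in wild type and 0.20 in knockout.

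The nuclear subunits of complexes I, III, IV and V each had wild type 1, wild type 2 and knockout 2 as their 3 highest libraries. Nuclear complex IV spanned -0.23 to 0.53, nuclear complex I -0.28 to 0.48, complex V -0.24 to 0.40 and complex III -0.22 to 0.39. Complex II, which holds both Sdha and Sdhb, spanned -0.15 to 0.22, and its 3 highest libraries were wild type 1, wild type 2 and knockout 5 (0.12), with knockout 2 at 0.05. The assembly factors, at far lower abundance, followed with 0.21, 0.28 and 0.25 in wild type 1, wild type 2 and knockout 2 and between -0.22 and 0.12 elsewhere.

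**Figure D3:**
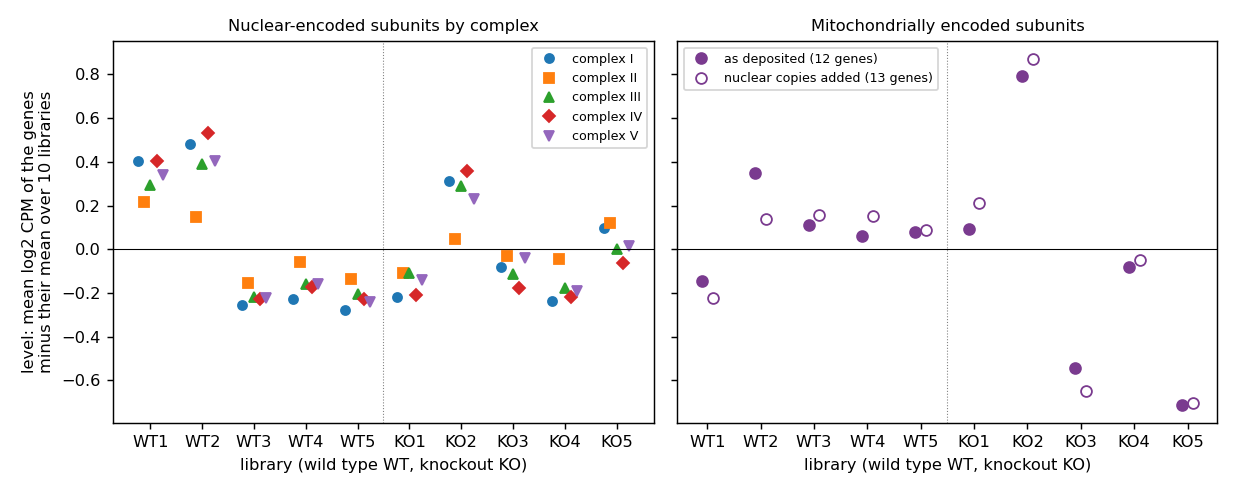
Level of each complex per library, as the mean log2 CPM of its genes minus their mean over the 10 libraries, for nuclear-encoded (left) and mitochondrially encoded subunits (right), with WT for wild type and KO for knockout. Nuclear complexes I, III, IV and V are highest in wild type 1 and 2 and knockout 2, complex II is at 0.05 in knockout 2 and 0.12 in knockout 5, and mitochondrially encoded genes are highest in knockout 2 (0.79) and lowest in knockout 5 (-0.71).

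The 4 nuclear subunits for which none of those 3 libraries ranked among the top 3 were Ndufs1, Sdha, Atp5a1 and Atp5b. Atp5a1 encodes the alpha subunit that forms the catalytic ring with Atp5b, and its levels ran from 799.9 to 995 CPM over all 10 libraries. In the deposited table the lengths of these 4 genes ran from 1916 to 2900 bases. Subunit genes of greater deposited length, such as Atp5l (6310 bases) and Atp5g1 (4715 bases), were not among the 4. Counts per TPM rise with the transcript length used for TPM. In the 24 subunits with the fewest counts per TPM, the median deviation was 0.45, 0.55 and 0.37 in wild type 1, wild type 2 and knockout 2. In the middle 26 it was 0.45, 0.52 and 0.34, and in the 24 with the most it was 0.21, 0.13 and 0.16. Across the 74 subunits of 1 library, the deviation correlated with log2 counts per TPM at r = -0.64, -0.68 and -0.52 in those 3 libraries and at between 0.11 and 0.70 in the other 7. With log2 deposited length the correlation was weaker in the same 3 libraries, at r = -0.26, -0.28 and -0.39. Genes of a library share its RNA and depth, so this is a description.

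**Figure D4:**
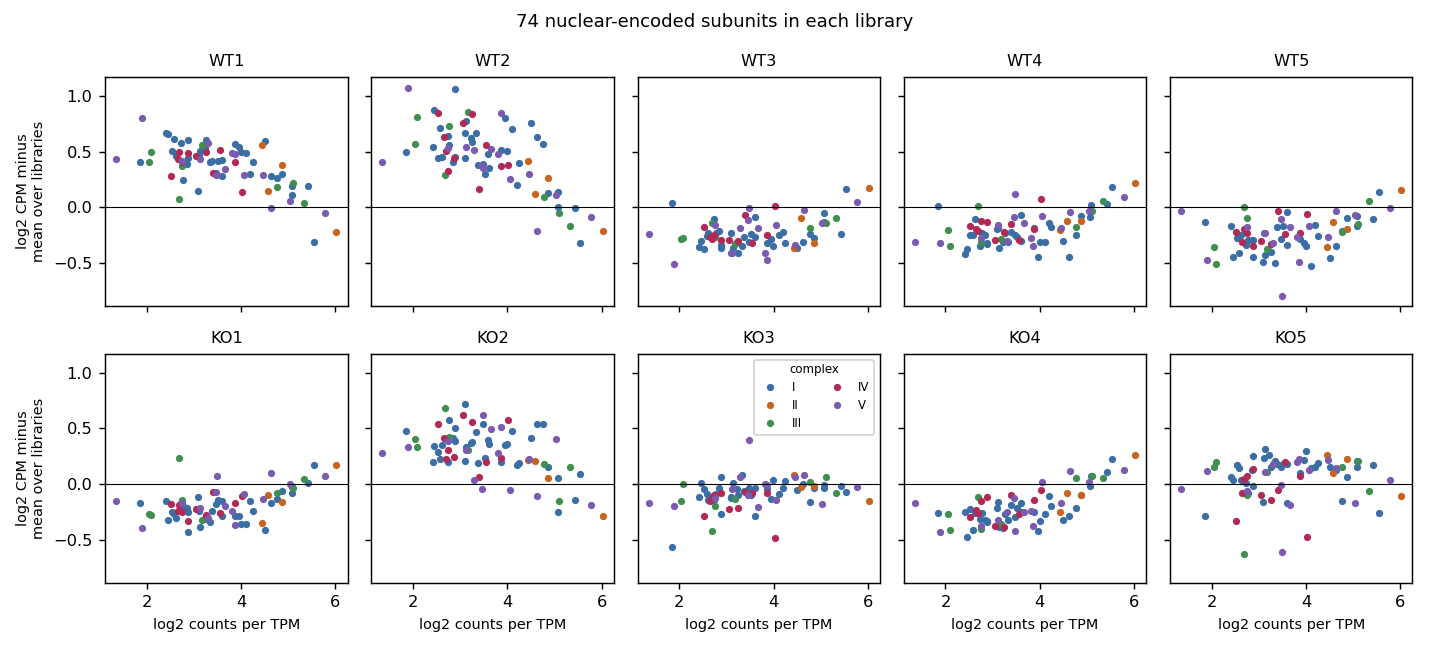
Deviation of 74 nuclear-encoded subunits from their own mean over the 10 libraries (log2 CPM, vertical) against log2 counts per TPM (horizontal), with 1 panel per library (WT wild type, KO knockout) and colour by complex. Points slope down in wild type 1 (r = -0.64), wild type 2 (r = -0.68) and knockout 2 (r = -0.52) and up in the other libraries.

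Some other lists of nuclear genes for mitochondrial proteins were high in the same libraries and others were not. The level of the 78 genes of the mitochondrial ribosome was 0.31, 0.36 and 0.26 in wild type 1, wild type 2 and knockout 2 and between -0.23 and 0.09 in the others. The tricarboxylic acid cycle list was at -0.10, -0.06 and 0.01 in the same 3 libraries and highest in knockout 4 (0.18), and the chaperone and protease list was lowest in wild type 1 (-0.10) and highest in knockout 4 (0.10). The 6 erythroid markers, of which 5 were tested and none was at 0, summed to 1595 and 1605 CPM in wild type 1 and 2, to 839.5, 1204 and 1057 CPM in knockout 2, 3 and 5, and to between 493 and 777 CPM in the other 5 libraries. By genotype that sum ran from 539 to 1605 CPM in wild type and from 493 to 1204 CPM in knockout. The part of red cell RNA and of transcript length in the subunit levels was not tested.

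Fits that used the first component or left out wild type 1 and 2 called 0 members. The share of all genes they called was 0.316% with the first component as a covariate, 0.108% among the 5 libraries negative on it, 0.0287% among the 5 positive ones and 0.0715% without wild type 1 and 2. With the first component as a covariate, 5 of 98 members had an unadjusted p under 0.05 (8.78% of all genes tested), all of them below 0. Among the 5 libraries with a negative first component, wild type 1 and 2 against knockout 2, 3 and 5, 17 members did (9.19% of all genes), with a median log2 fold change of -0.26 over the members. Among the 5 with a positive one, mt-Nd5 alone did (9.11% of all genes), and the median was 0.03. Without wild type 1 and 2, 16 members did (14.0% of all genes), and the median was 0.23. That fit kept knockout 2, in which the nuclear subunits were also high. Among the 5 negative libraries, wild type lay further out on the first component (-38.4 and -41.8) than knockout (-22.4, -7.65 and -15.4). Neither of these fits removed the pattern, so their medians cannot tell it apart from genotype. The direction of the median over the tested members therefore turned with the libraries that were compared. The lowest edgeR adjusted p of any member in any of these fits was 0.32 (mt-Nd3, without wild type 1 and 2).

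Without counts given to near-identical nuclear copies, the 13 mitochondrially encoded genes took between 5.17% and 9.17% of all counts per library as deposited. Their median log2 fold change was -0.15 over the 12 tested, with 7 below 0 and 5 above, and 0.02 once reads of near-identical nuclear copies were added. Their level was -0.15, 0.35, 0.11, 0.06 and 0.08 in wild type 1 to 5 and 0.09, 0.79, -0.54, -0.08 and -0.71 in knockout 1 to 5. The highest and the 2 lowest libraries were all knockouts, and the wild type libraries lay between them.

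For 7 of the 13 genes, a copy in the nuclear genome is nearly the same in sequence, so reads can match both. The annotation places these copies within chr1:24611535-24616197 of GRCm38 on the minus strand, and each matches its gene at 99% identity or more over at least 250 bases. The starts of mt-Co2 and of its copy Gm28661 show the case: the 60 bases are the same letter for letter, as are all 681 aligned bases. They lie at chrM:7013-7072 on the plus strand and chr1:24615506-24615565 on the minus strand, in GENCODE M21 transcripts.
mt-Co2: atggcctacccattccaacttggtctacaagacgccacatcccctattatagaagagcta
Gm28661: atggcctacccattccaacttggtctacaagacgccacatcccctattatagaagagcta
The pair mt-Nd3 and Gm28438 differs at a single base, T3C, counted from the 5′ end of mt-Nd3 and shown in capitals, at chrM:9459-9518 on the plus strand and chr1:24613060-24613119 on the minus strand.
mt-Nd3: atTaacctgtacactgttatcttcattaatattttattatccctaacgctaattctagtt
Gm28438: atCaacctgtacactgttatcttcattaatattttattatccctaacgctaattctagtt

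The deposited counts were split between each gene and its copy unevenly. Gm28661 held between 96.3% and 98.3% of the counts of its pair with mt-Co2, and Gm28437 between 95.2% and 97.7% of those with mt-Co3. Gm10925 held between 87.6% and 94.9% of its pair with mt-Atp6. Gm10222 held all counts of its pair with mt-Nd4l in 9 libraries, where mt-Nd4l was listed at 0, and 91.2% in wild type 2. The mt-Nd3 copy held between 34.7% and 60.4%, the partial mt-Co1 copy Gm29216 (A1066T, from the 5′ end of mt-Co1) between 5.15% and 7.51%, and the copy Gm28439 of mt-Nd4 had 0 counts. Values of these 7 genes as deposited are therefore uncertain, although adding the 0 counts of Gm28439 leaves the counts of mt-Nd4 unchanged. The CPM of single genes below have the copies' counts added. Except where stated, the share of counts, medians and levels given above and the summed TPM below are as deposited.

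With copies added, 0 of 99 members were called (0.132% of all genes), and the order of the genes by CPM per kilobase was led by complex IV. mt-Co1, the catalytic core of cytochrome c oxidase, stood at a mean of 24307 CPM per kilobase, followed by mt-Co3 (14979) and mt-Co2 (11720). Cytochrome b of complex III (mt-Cytb) had 8201 and mt-Atp6 had 7334. The complex I genes mt-Nd2 (5477), mt-Nd1 (4497), mt-Nd4 (3941) and mt-Nd3 (2142) came next, then mt-Atp8 (1362), mt-Nd5 (1183), mt-Nd6 (768) and mt-Nd4l (680). mt-Nd6 is the only one of the 13 encoded on the other strand, where it overlaps the end of mt-Nd5. Each gene's range over the 10 libraries overlapped that of the next gene in this order. On the same strand, mt-Atp8 (204 bases, to position 7969) overlaps mt-Atp6 (from 7927). So does mt-Nd4l (297 bases, to 10173) with mt-Nd4 (from 10167). The places of these genes thus also depend on how reads were assigned, and may not be an order of abundance.

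No gene of the mitochondrial genome separated the genotypes, with or without the copies. mt-Nd6 had the smallest p with copies added. It measured 311, 479.6, 544, 486 and 432 CPM in wild type 1 to 5 and 463, 475, 193, 369 and 234 CPM in knockout 1 to 5. Knockout 3 and 5 lay below all others, the remaining knockout libraries overlapped wild type, and the log2 fold change was -0.38 ± 0.25 (edgeR adjusted p = 1.00). mt-Co2 moved from -0.35 ± 0.22 as deposited to 0.06 ± 0.27 with its copy, and mt-Atp6 from -0.47 ± 0.38 to 0.00 ± 0.35. mt-Co1 had -0.09 ± 0.23, mt-Cytb 0.06 ± 0.35 and mt-Nd1 0.21 ± 0.30.

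Between libraries, the mitochondrially encoded genes fell into different orders. mt-Nd5, the largest proton-pumping subunit gene, had 1085, 1104, 3721, 3173 and 2997 CPM in wild type 1 to 5 and 2800, 2709, 832, 2363 and 791 CPM in knockout 1 to 5. Wild type 1 and 2 and knockout 3 and 5 thus stood at 1104 CPM or less and the other 6 libraries at 2363 CPM or more. The same 4 libraries were below the other 6 without overlap for 6 of the 13 genes: mt-Nd4l, mt-Nd4, mt-Nd5, mt-Cytb, mt-Nd2 and mt-Atp8. The gap was narrow for mt-Nd2 (at most 5244 against at least 5374 CPM) and mt-Cytb (9172 against 9502 CPM). The split was read from these same values, and how many of all tested genes showed it was not counted. For mt-Nd4l, with reads from its copy, they held 54.3 to 96.4 CPM against 213 to 324 CPM.

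Of the other 7 genes, mt-Co3, mt-Nd3 and mt-Co1 were highest in wild type 1, wild type 2 and knockout 2, the 3 libraries in which most nuclear subunits were high, and mt-Nd1, mt-Co2, mt-Atp6 and mt-Nd6 showed neither split. mt-Co3 had 14702 and 19000 CPM in wild type 1 and 2 and 20405 CPM in knockout 2, and between 8060 and 10405 CPM in the other 7. mt-Co1 had between 51365 and 51957 CPM in those 3 libraries and between 27437 and 37433 CPM elsewhere. mt-Nd3 and mt-Nd4l are neighbours on the genome, yet wild type 2 was 1.37 log2 units above the median of the libraries for mt-Nd3 and 1.53 log2 units below it for mt-Nd4l. In knockout 2, all 13 genes lay above the median, by 0.09 to 1.41 log2 units.

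**Figure D5:**
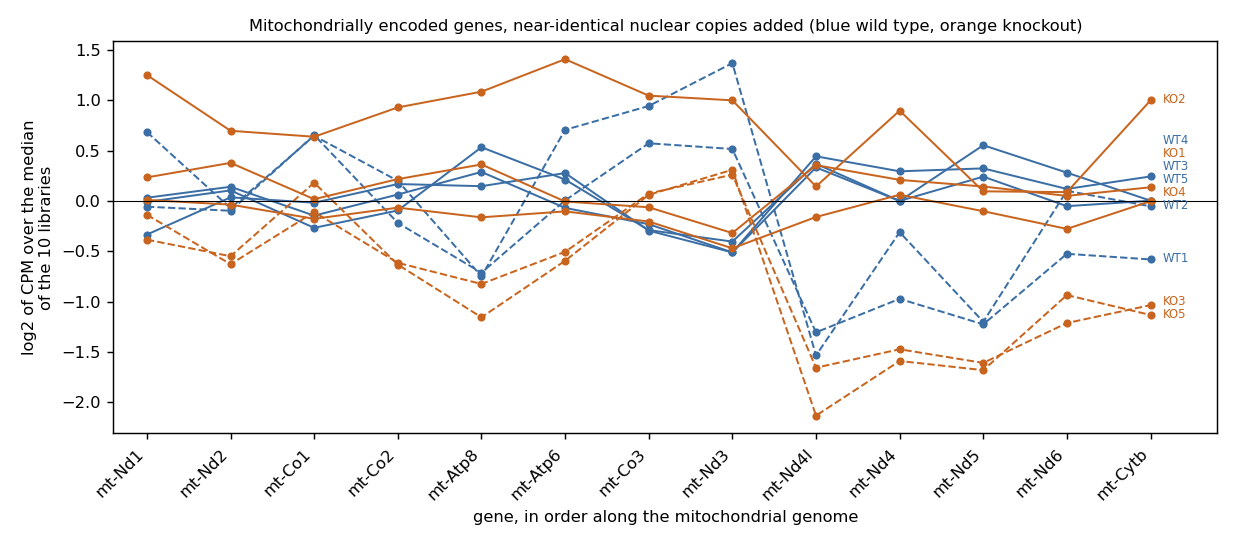
Level of the 13 mitochondrially encoded genes in each library, as log2 of CPM over the median of the 10 libraries, in order along the mitochondrial genome and with counts of near-identical nuclear copies added (blue wild type, orange knockout). The dashed lines are wild type 1 and 2 and knockout 3 and 5, which lie above the median at mt-Nd3 and at 1.20 or more log2 units below it at mt-Nd4l and mt-Nd5.

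The ratio of mitochondrially to nuclear-encoded subunit RNA had nearly the same mean in both genotypes. As log2 of summed TPM it was 1.76, 1.97, 2.63, 2.60 and 2.56 in wild type 1 to 5, and 2.58, 2.92, 1.86, 2.38 and 1.70 in knockout 1 to 5. The means were 2.30 ± 0.41 and 2.29 ± 0.50 (SD, n = 5 each), a difference of -0.01, smaller than either SD. On the linear scale the mitochondrial sum was between 3.26 times (knockout 5) and 7.55 times (knockout 2) the nuclear sum. That range was 6.68 to 13.6 times in counts per kilobase with copies added, and 2.21 to 4.13 times in TPM without mt-Atp8. The lower 4 libraries in TPM were wild type 1 and 2 and knockout 3 and 5, but with copies added (3.17 against 3.16, log2) and in summed counts (2.46 against 2.43) wild type 2 lay above knockout 4.

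mt-Atp8 weighed on that ratio. It had a mean of 42075 TPM, more than any other member, although its counts gave it 1362 CPM per kilobase, since the TPM of a gene of 204 bases rests on a very short effective length. Without mt-Atp8 the difference between genotypes was -0.03, and with counts per kilobase and copies added it was -0.02. In summed counts the difference was -0.05, and wild type libraries then lay between 2.36 and 2.61 with an SD of 0.098 and knockout libraries an SD of 0.389. The difference in spread was not tested.

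Lists of genes around the chain held 0 called genes as well, against 0.132% of all tested genes. An unadjusted p under 0.05 was reached by 4.82% of all tested genes. Assembly factors outside the name rule, of which 9, 4, 6, 19 and 4 were tested for complexes I to V, had none with an unadjusted p under 0.05, and their list medians ran from -0.08 to 0.03. The 11 subunits and electron carriers outside the rule had a median of -0.04, and the 7 tested nucleotide and phosphate carriers and porins -0.02, with none at an unadjusted p under 0.05 in either. Of 13 genes of coenzyme Q synthesis, the electron carrier that links complexes I and II to III, 1 had an unadjusted p under 0.05: Coq8a, a kinase-like protein needed for its synthesis, which had 114 ± 21.1 CPM in knockout and 152 ± 8.93 CPM in wild type (log2 fold change -0.41 ± 0.13, edgeR adjusted p = 0.60). Of 17 genes of the tricarboxylic acid cycle and pyruvate dehydrogenase, 2 did: Suclg1, a succinyl-CoA ligase subunit (0.27 ± 0.10, adjusted p = 0.82), and Idh2, the mitochondrial NADP-dependent isocitrate dehydrogenase (0.31 ± 0.12, adjusted p = 0.90).

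Of 31 genes that copy, transcribe or process mitochondrial nucleic acids, Fastkd3, an RNA-binding protein of mitochondria, had the smallest p (0.34 ± 0.14, edgeR adjusted p = 0.99). It alone of the 31 had an unadjusted p under 0.05, against 4.82% of all tested genes. None of the 13 tested nuclear regulators of respiratory genes did, with Esrrg (-0.63 ± 0.34) and Gabpa (-0.19 ± 0.20) at the smallest p, nor did any of the 78 mitochondrial ribosome genes, whose median was -0.02. The mitochondrial protein import list (25 genes) had a median of -0.02, and the chaperone and protease list (14 genes) 0.03. Of the 24 mitochondrial rRNA and tRNA genes, 18 had 0 counts in all libraries and 4 were tested, with none at an unadjusted p under 0.05.

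Markers of other cells were read for the same libraries, where 4.82% of all tested genes had an unadjusted p under 0.05. The 8 Kupffer cell and 8 endothelial markers held none with an unadjusted p under 0.05 (medians -0.02 and -0.09), and the adipocyte markers summed to at most 6.89 CPM, with 1 of 6 tested. Of the 5 tested cholangiocyte markers, 2 had an unadjusted p under 0.05, Sox9 (-0.62 ± 0.19) and Spp1 (-0.97 ± 0.35), with edgeR adjusted p of 0.57 and 0.80, and the list summed to between 38.8 and 124 CPM in wild type and between 21.4 and 49.8 CPM in knockout. Of 8 stellate cell and fibroblast markers, 1 did, Col3a1 (-0.61 ± 0.26, adjusted p = 0.99), and the list summed to 163 to 299.6 CPM and 157 to 241 CPM. All 8 stellate estimates and 4 of 5 cholangiocyte estimates were below 0, none of these markers was at 0, and their part in the subunit levels was not tested.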

How the data were processed

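RNA-seq of 10 liver samples (5 per genotype) was used from 1 table. Per the submitters' processing notes the tools include fastp, HISAT and RSEM with GRCm38.p5; the sources used here give no versions, strand setting or annotation release. The authors deposited expected counts per gene (unscaled; 7.68% not whole at a tolerance of 1e-09, rounded here). Per the file headers, the authors also made TPM by scaling per gene length and library. The log2 fold changes were computed by the authors between the genotypes, per the file headers. The p-values were computed by the authors for the same comparison, per the file headers, which do not say whether they were adjusted.

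The 4 rows that name no gene were left out. Counts were filtered by expression, normalised by TMM and tested with edgeR 4.0.16 (R 4.3.3) by its quasi-likelihood test with Benjamini-Hochberg adjustment over all tested genes; 3 counts correspond to 0.111 to 0.146 CPM. Replicate libraries differed by more than sampling noise. Alternatives were DESeq2 1.42.0, limma 3.58.1 (voom, or log2(TPM + 1)), other scalings and filters, a replicate block and libraries left out. Those using the first component or near-identical copies were chosen after seeing the data. Copies were found with blastn 2.17.0 between GENCODE M21 (GRCm38) transcripts, and promoters are from RefSeq (GRCm38.p6). Scripts were tested on simulated data.

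The members and lists were chosen with earlier results of these data known. Genes named are the mitochondrially encoded members, complex II, per other complex the 3 nuclear members with the smallest p and the 2 with the highest TPM, members with a tissue-restricted sister, the 3 assembly factors and up to 2 genes of other lists with the smallest p, and members too low to test. Ndufs1 and Atp5a1 were added after their values were seen.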

Additional observations from a re-analysis of the deposited data

Results flagged for a closer look

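Of 104 groups of 5 libraries tested for a single library far from the others, 10 were past the critical value of 0.71. That value is for the gap to the nearest library divided by the range of the group. Chance gives about 1 in 20 for independent groups, but these groups share libraries, and the complex levels contain the single genes. Knockout 2 was the high library in 8 of the 10. For single genes the gap was 0.829 of the range for Cox6c, 0.742 for Cox7a2, 0.721 for Ndufa4, 0.787 for Ndufa6 and 0.785 for Ndufb3. For the library level of whole complexes it was 0.77 for complex III, 0.893 for complex IV and 0.798 for complex V. Atp5b was low in wild type 2 (0.82 of the range) and in knockout 2 (0.759).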

How the results depend on the processing

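None of the 25 alternatives called a member. Over 43 named members this gave 1075 values, of which 140 changed sign and 0 were called. The sign changed in at least 1 alternative for 36 of the 43. Over the whole table, where 18 genes were called, DESeq2 called 101, limma on TPM 11, the fit without wild type 1 and 2 called 10, the first component as covariate 43, its 5 positive libraries 4, and leaving out 1 library gave 6 to 21. The median of the 12 mitochondrially encoded genes as deposited was -0.37 in limma-voom and -0.41 to 0.0081 with 1 library left out, the lowest without knockout 2. Without wild type 1 and 2 the medians were 0.27 for complex I, 0.19 for complex II, 0.22 for complex IV and 0.21 for its mitochondrially encoded genes. Among libraries negative on the first component, that of mitochondrially encoded complex I genes was 0.11. With 1 library left out, the median of mitochondrially encoded complex I genes ranged from -0.42 to 0.020. That of mitochondrially encoded complex V genes ranged from -0.57 to -0.012, and the difference in mitochondrial level (-0.18) from -0.40 to -0.026. Each of these was lowest without knockout 2. The cause was not tested. With the replicate block 26 genes and 0 members were called. Same-numbered libraries correlated at -0.41, 0.39, 0.00, 0.43 and -0.19 in their deviations from the group means. These correlations also carry the pattern that crosses the genotypes, so they cannot decide whether the numbers pair samples, and no label says so.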
